A study of Mus musculus with 6 samples.

Results

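The 10 genes described here mark the epithelial and mesenchymal states of a cell: the adhesion genes Cdh1, Cdh2, Cdh17 and Epcam, the intermediate filament gene Vim, and the epithelial-mesenchymal transition (EMT) factors Snai1, Snai2, Zeb1, Zeb2 and Twist1. They were chosen by name, and all 10 were found among the 36172 genes of the expression table. RNA was sequenced from organoids, 3D cultures of epithelial tumor cells, grown from small intestinal tumors of C57BL/6 mice aged 15 to 20 weeks. All 3 genotypes carried the Apc Δ716 mutation, written Apc(D716) in the sample labels, which truncates the Apc protein and activates Wnt signaling. They differed at Trp53: Trp53 +/+ (labelled p53(+/+)), Trp53 flox/flox (p53(flox/flox)), and Trp53 R270H/R270H (p53(M/M)). The floxed allele is silent until a stop cassette is removed, so these cells lack p53. In the third genotype tamoxifen had activated villin-CreER, a recombinase driven by an intestinal epithelial promoter, and both alleles then expressed the missense protein p53 R270H. Each genotype had 2 libraries, from organoids prepared independently from different mice. Below, the genotypes are called +/+, flox/flox and R270H/R270H. The question was how these genes differed between tumor cells with wild-type p53, without p53 and with missense p53.

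In EMT, epithelial cells lose their junctions and gain the motile, filament-rich form of mesenchymal cells. E-cadherin (Cdh1) holds neighboring epithelial cells together through catenins on its cytoplasmic side, and N-cadherin (Cdh2) takes its place in many mesenchymal cells. The zinc finger factors Snai1, Snai2, Zeb1 and Zeb2 repress Cdh1 by binding E-boxes, short motifs in its promoter, and the helix-loop-helix factor Twist1 drives the same program. Liver-intestine cadherin (Cdh17) and the surface protein Epcam are hallmarks of intestinal epithelium, and vimentin (Vim) is the standard filament of mesenchymal cells.

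Expression was given as rpkm, read counts scaled to transcript length and to the mapped reads of the library, which can be compared between genes because it is per length. No value was under 1 rpkm, and 67.9 to 70.4% of genes in each library stood at this floor, so that a gene listed at 1 may have any lower level. Depth, estimated from steps of 1 read in short genes, was 44.2 to 48.5 M (mega) mapped reads per library. At the median of 46.9 M, 1 rpkm corresponded to about 76 reads for Snai1 or Twist1 and 935 for Zeb2, so a low level of these genes was not detectable. Trp53 itself stood at 75.9 and 74.3 rpkm in the +/+ libraries, 1.73 and 2.48 in flox/flox and 72.8 and 82.7 in R270H/R270H, as the labels say. The typical s.d. of a gene between the libraries of a genotype was 0.247 on the log2 scale in flox/flox, against 0.046 in +/+ and 0.062 in R270H/R270H. Of 18 markers of stroma, endothelium and immune cells, 11 were at the floor in all 6 libraries, as were 65.7% of all genes; they include Ptprc, Pecam1, Col1a2, Col3a1 and Lum. Ptprc marks all leukocytes and Pecam1 endothelium. The summed level of the list was 35.1 and 35.2 rpkm in +/+, 19.1 and 43.0 in flox/flox, and 19.8 and 20.0 in R270H/R270H. A gene at the floor adds 1 rpkm to this sum, so 18 genes at the floor would already give 18. The sums of flox/flox replicate 1 and of both R270H/R270H libraries were thus mostly floor and are not measured levels. The macrophage marker Cd68 made up part of the summed level, at 10.2 and 9.87, 2.06 and 11.1, and 2.22 and 2.41 rpkm in the same order. In flox/flox replicate 2 alone, Col1a1 (2.44 rpkm) and Pdgfrb (1.36 rpkm) were above the floor and Acta2 reached 11.5 rpkm. All 12 epithelial markers passed the filter, with summed levels of 3448 and 3475, 5871 and 4799, and 2630 and 2797 rpkm in the same order of genotypes.

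The members differed in whether they passed the filter. Cdh1, Cdh17, Epcam and Vim were above the floor in every library and had at least 4 rpkm in at least 1 library, the filter for testing. The other 6 did not pass it: Snai1, Zeb1, Zeb2 and Twist1 were listed at 1 rpkm in all 6 libraries, and Cdh2 and Snai2 exceeded 1 rpkm in some of them. Within +/+ the order by mean level was Epcam, Cdh1, Cdh17 and Vim. In R270H/R270H it was Epcam, Vim, Cdh1 and Cdh17.

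**Figure D1:**
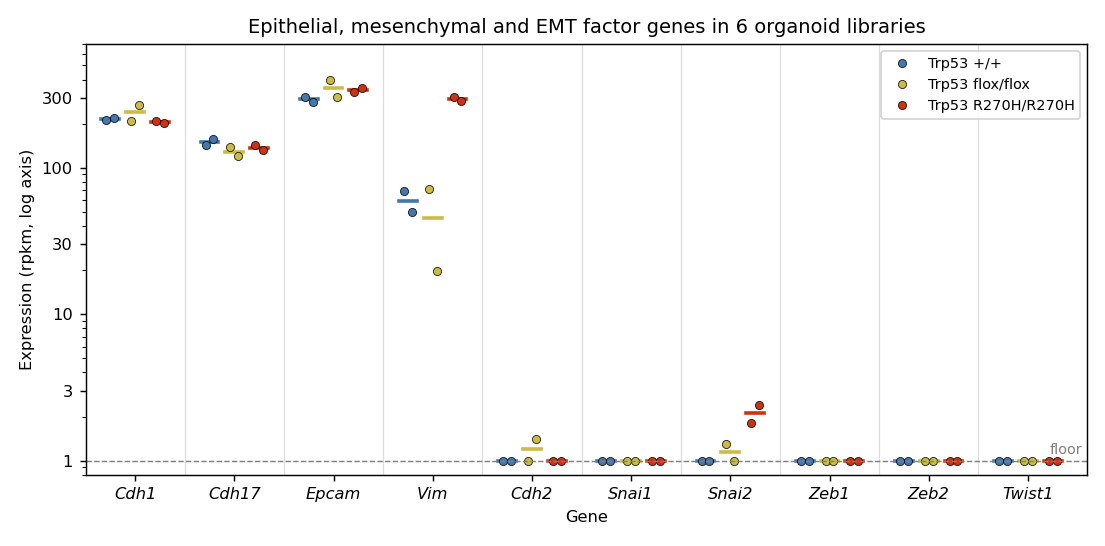
Expression of the 10 genes (rpkm, log axis) in the 6 libraries; points are libraries, short bars are genotype means, and the dashed line is the floor of 1 rpkm. Vim is at 306 and 284 rpkm in R270H/R270H and at most 71.6 in the other 4 libraries, while Cdh1, Cdh17 and Epcam lie between 120 and 399 rpkm throughout.

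Vim (chr2:13573927-13582826, GRCm38) was the member that differed most. Its level was 69.0 and 49.95 rpkm in +/+, 71.6 and 19.8 rpkm in flox/flox, and 306 and 284 rpkm in R270H/R270H. Both R270H/R270H libraries were therefore above the other 4, as were those of 26.5% of all genes tested. The means were 59.5±13.4, 45.7±36.6 and 295±15.6 rpkm (s.d., n=2), so the R270H/R270H mean was 4.96 times that of +/+ and 6.46 times that of flox/flox. On the log2(rpkm+1) scale Vim was higher in R270H/R270H than in flox/flox by 2.93±0.58 (s.e., 95% interval 1.45 to 4.40), and this passed the test across all 10042 genes (limma adjusted p=0.0261). Against +/+ the difference was 2.31±0.58 (95% interval 0.83 to 3.79), which ranked 41 among the 10042 genes but missed the threshold of 0.05 (limma adjusted p=0.0622). The flox/flox and +/+ libraries overlapped, with a difference of -0.62 (95% interval -2.10 to 0.86, limma adjusted p=0.472).

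The 2 flox/flox libraries differed 3.61-fold in Vim, and the fit shares 1 estimate of the spread over all 6 libraries. Without flox/flox replicate 1 the adjusted p for Vim in R270H/R270H against +/+ was 0.00041, and without replicate 2 it was 0.000383. It was 0.000698 in a fit of these 2 genotypes only. With any +/+ or R270H/R270H library left out, this p rose to between 0.267 and 0.348, and over all genes 0 to 111 calls were then left of 1227. The call against flox/flox was lost without either +/+ library (adjusted p=0.0845 and 0.0815) and without either R270H/R270H library (0.198 and 0.145). It was lost also in a fit of these 2 genotypes only (0.0856). Without flox/flox replicate 1, Vim was lower in flox/flox than in +/+ by -1.52 (limma adjusted p=0.00429), and without replicate 2 the difference was 0.28 (0.231), so its sign rested on which library was kept. Of the mesenchymal genes on the lists, Col1a1, Col1a2, Col3a1, Dcn, Lum, Pdgfra and Pdgfrb were at the floor in both R270H/R270H libraries, and Acta2 was at 1.53 and 1.59 rpkm there against 1 in both +/+ libraries. Cdh11 and S100a4 were higher there, with values given below, and Sparc was at 1.16 and 1.68 rpkm against 1 in both +/+ libraries. The part of RNA from other cells in the Vim level was not tested. RNA from a few cells of high level and RNA from many cells of low level cannot be told apart in such bulk libraries, nor can fewer cells and less RNA per cell.

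The epithelial adhesion genes stayed close to their levels in +/+ cells, and no difference between genotypes passed the test. Cdh1 (chr8:106603351-106670246) stood at 212 and 220 rpkm in +/+, 210 and 268 in flox/flox and 209 and 201 in R270H/R270H. The R270H/R270H libraries lay just under the other 4, below both +/+ libraries as in 37.6% of all genes tested, at 0.950 times the +/+ mean, and the log2 difference was -0.07±0.15 (s.e., 95% interval -0.45 to 0.30, limma adjusted p=0.771). This interval leaves out a fall of Cdh1 by 1 on the log2 scale. Between R270H/R270H and flox/flox the Cdh1 difference was -0.21 (95% interval -0.58 to 0.16, limma adjusted p=0.312), and between flox/flox and +/+ it was 0.14 (-0.24 to 0.51, limma adjusted p=0.528). Both of these passed the test when flox/flox replicate 1 was left out (adjusted p=0.00801 and 0.0199), where the lone remaining flox/flox library is the one with 268 rpkm.

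Cdh17 (chr4:11758147-11817895) had 143 and 158 rpkm in +/+, 138 and 120 in flox/flox, and 143 and 132 in R270H/R270H. The 2 mutant genotypes overlapped with each other, and every library was within 120 to 158 rpkm. Its log2 differences from +/+ were -0.13 (95% interval -0.44 to 0.18, limma adjusted p=0.525) in R270H/R270H and -0.22 (-0.54 to 0.09, limma adjusted p=0.253) in flox/flox. The latter reached an adjusted p of 0.0437 without flox/flox replicate 1. Between the mutant genotypes it was 0.09 (-0.22 to 0.41, limma adjusted p=0.585), and -0.004 without flox/flox replicate 2.

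Epcam (chr17:87635979-87651129) was the most abundant member on the rpkm scale in each genotype, with 306 and 280 rpkm in +/+, 399 and 305 in flox/flox and 330 and 351 in R270H/R270H. Both R270H/R270H libraries were above both +/+ libraries, as were those of 44.2% of all genes tested. The log2 difference was 0.21±0.16 (s.e., 95% interval -0.20 to 0.62, limma adjusted p=0.423). With a weight for each genotype, which gives the variable flox/flox libraries less influence, this same difference had an adjusted p of 0.0427. flox/flox differed from +/+ by 0.25 (-0.16 to 0.66, limma adjusted p=0.312), and by 0.44 with an adjusted p of 0.00758 without replicate 2. The difference between the mutant genotypes was -0.04 (-0.45 to 0.38, limma adjusted p=0.876), and its sign turned under upper-quartile scaling (0.01).

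Across the members, 0 of the 4 tested members were called between R270H/R270H and +/+, where 12.2% of all genes tested were called. At an unadjusted p under 0.05 the count was 1, Vim. Between flox/flox and +/+ 0 of 4 were called, also 0 at an unadjusted p under 0.05, against 11.3% of all genes. Between R270H/R270H and flox/flox 1 of 4, Vim, was called, against 24.6% of all genes. With 2 libraries a genotype, an exact permutation test of a single gene could not give a p under 0.333. The comparisons with +/+ share its 2 libraries, and those with flox/flox likewise, so they are not independent of each other.

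**Figure D2:**
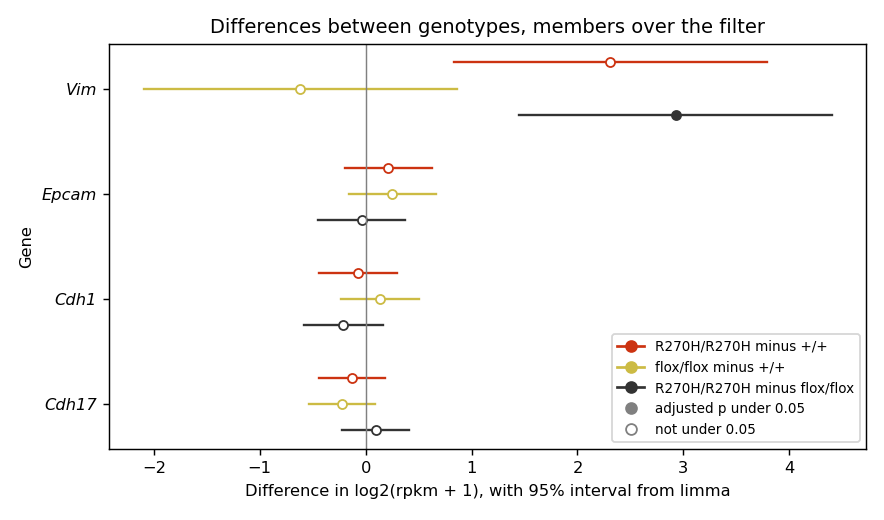
Differences between genotypes in log2(rpkm + 1) for the 4 members over the filter; points are estimates, lines are 95% intervals from limma, and filled points have an adjusted p under 0.05. Vim against flox/flox (2.93) is the filled point, and the intervals of Cdh1, Cdh17 and Epcam all include 0.

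Among the EMT factors, Snai2 (Slug, chr16:14705852-14709385) was the only member above the floor in any library. It was listed at 1 rpkm in both +/+ libraries, at 1.29 and 1 in flox/flox, and at 1.81 and 2.41 in R270H/R270H. Both R270H/R270H libraries were thus above the other 4, as were those of 26.5% of all genes tested with the main filter. The level was low: the R270H/R270H mean of 2.11 rpkm was at least 2.11 times that of +/+, which is listed at the floor. Since 1 rpkm of Snai2 is about 95 reads, these values were not at the limit of counting. Snai2 had under 4 rpkm everywhere and was not tested with the main filter. When every gene above the floor in at least 1 library was kept (12412 genes), its log2 difference was 0.63±0.12 (s.e.) from +/+ and 0.53±0.12 from flox/flox (limma adjusted p=0.0332 and 0.0366), and 0.10 between flox/flox and +/+ (0.594). This looser filter admits genes through the group in which they are high. Both +/+ values of Snai2 are held at the floor and show no spread, so these calls are not independent support. Snai2 was not fitted with single libraries left out.

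N-cadherin (Cdh2) was above the floor in a single library, flox/flox replicate 2, at 1.41 rpkm. That is the library in which Col1a1, Pdgfrb and Acta2 also stood out, and the part of stromal RNA in this value was not tested. Cdh2 was at 1 rpkm in both R270H/R270H libraries. Snai1, Zeb1, Zeb2 and Twist1 were at the floor in all libraries, and no difference between genotypes was detectable for them. They share this with 65.7% of the genes in the table.

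The promoter sequences of the members were read for E-boxes, since these are the motifs that the Snai and Zeb factors bind. RefSeq promoters on GRCm38.p6, from 250 bases before to 50 bases after the start, were used for 5 of the 10 members (Vim, Epcam, Snai1, Twist1 and Zeb2, 8 promoters in all). The other members had no usable entry or were left out by the plan of the search. The hexamer CAGGTG, or CACCTG on the other strand, was found in Epcam and Snai1, and in 20.2% of all 32851 promoters. Vim, Twist1 and the 4 promoters of Zeb2 held no CANNTG at all, the looser E-box that 72.3% of promoters contain and that includes CAGGTG. The Vim promoter held TATAAA on the given strand, a motif chosen after the sequences were seen and found in 8.32% of promoters. Twist1, at the floor in all libraries, also held it, 126 bases before the start. The stretches below, 5′ to 3′ on the plus strand, show each E-box of the epithelial gene Epcam, that of the factor gene Snai1 and the TATAAA of Vim, with the hexamer in capitals.
Epcam, CACCTG 187 bases before the start, chr17:87635780-87635809: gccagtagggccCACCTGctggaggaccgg
Epcam, CAGGTG 19 bases before the start, chr17:87635948-87635977: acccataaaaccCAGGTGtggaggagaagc
Epcam, CACGTG 30 bases after the start, chr17:87635997-87636026: ggactgattctgCACGTGagacctgcggcg
Snai1, CACCTG 126 bases before the start, chr2:167538057-167538086: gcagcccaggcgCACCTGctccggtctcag
Vim, TATAAA 32 bases before the start, chr2:13574267-13574296: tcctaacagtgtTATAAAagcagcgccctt
These matches describe the letters in the window and do not show that a factor is bound there.

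Of 11 further EMT-inducing factors outside the members, 6 were at the floor in all libraries (65.7% over all genes), among them Twist2, Foxc2, Prrx1, Prrx2 and Gsc, Foxc1 was at 1.05 rpkm in flox/flox replicate 2 and otherwise at the floor, and 4 were tested. Tcf4, which encodes the helix-loop-helix protein E2-2 and is not the Wnt effector Tcf7l2, was the gene of this list that rose in R270H/R270H. It had 6.89 and 6.54 rpkm in +/+, 9.74 and 5.75 in flox/flox and 37.9 and 33.3 in R270H/R270H. Both R270H/R270H libraries were above the other 4, as were those of 26.5% of all genes tested. The log2 difference was 2.25±0.24 (s.e.) from +/+ (limma adjusted p=0.00783) and 2.10±0.24 from flox/flox (limma adjusted p=0.00728). Hmga2, an architectural chromatin protein, had 19.1 and 18.9 rpkm in +/+ and 21.1 and 20.9 in R270H/R270H, but 9.29 and 12.8 in flox/flox. It fell in flox/flox by 0.74 on the log2 scale (limma adjusted p=0.0469) and was higher in R270H/R270H than there by 0.88 (0.0215). The call of Hmga2 in flox/flox was lost when any +/+ or R270H/R270H library was left out (adjusted p from 0.151 to 0.318). Tcf3, which encodes E2A, was lower in R270H/R270H than in flox/flox (-0.83, limma adjusted p=0.0428), and Snai3, at 1.63 to 4.40 rpkm, was not called in any comparison. The median log2 difference of the 4 from +/+ was -0.07 in R270H/R270H and 0.17 in flox/flox, against 0.028 and -0.025 over all genes tested.

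Of 14 mesenchymal products other than Vim and Cdh2, 9 were above the floor in at least 1 library, 5 were tested, and 2 of the 5, Cdh11 and S100a4, rose in R270H/R270H against both other genotypes; 5.86% of all genes tested were called higher against +/+ and 13.6% against flox/flox. Both genes reached the filter of 4 rpkm only in R270H/R270H, so their place among the tested genes was fixed by that difference and the count is not support. S100a4, a calcium-binding protein of motile cells, had 2.00 and 2.48 rpkm in +/+, 3.30 and 2.16 in flox/flox and 11.7 and 8.96 in R270H/R270H. Its log2 difference from +/+ was 1.80±0.22 (s.e., limma adjusted p=0.0122). Fibronectin (Fn1) had 6.01 and 6.30, 3.11 and 17.2, and 15.8 and 12.0 rpkm, and the flox/flox libraries spanned those of the other genotypes (1.04 against +/+, limma adjusted p=0.353). The median log2 difference of the 5 from +/+ was 1.04 in R270H/R270H and 0.27 in flox/flox, against 0.028 and -0.025 over all genes tested. Since Cdh11 and S100a4 are among the 5, these medians are not support either. Of this list, Col1a1, Col1a2, Col3a1, Acta2 and Pdgfrb are also on the stromal marker list. The calls of Tcf4, Cdh11 and S100a4 against +/+ had adjusted p-values up to 0.131, 0.109 and 0.139 when single libraries were left out, the calls of Tcf4 and S100a4 being lost whenever a single +/+ or R270H/R270H library was left out.

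**Figure D3:**
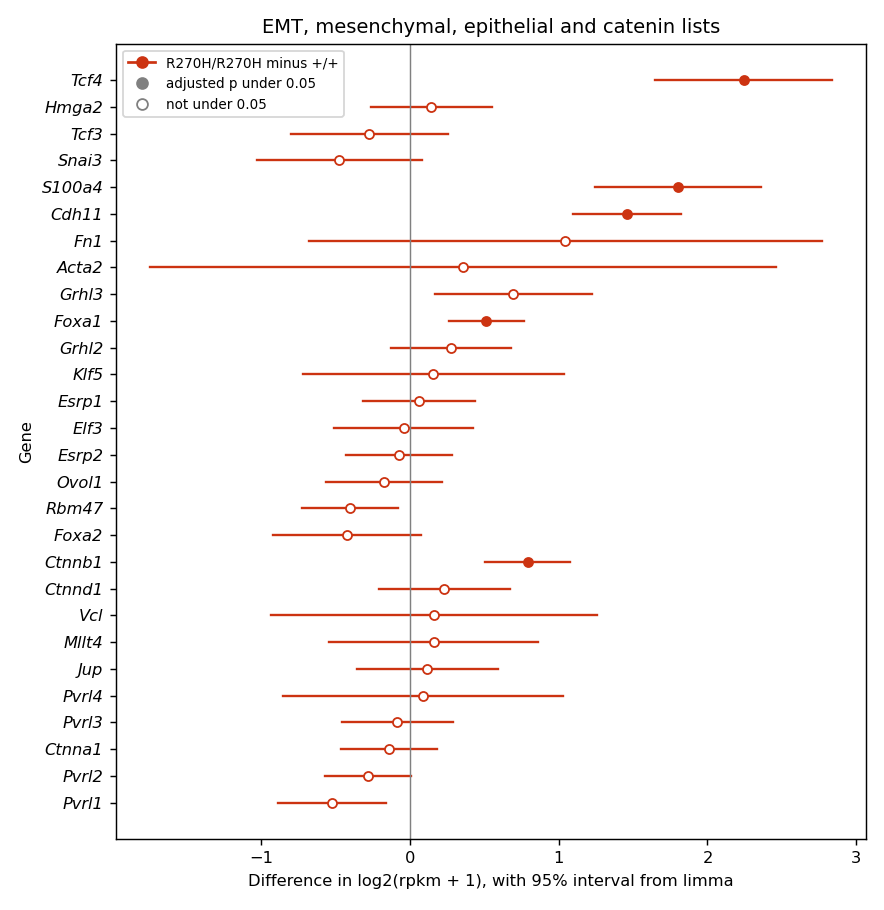
Differences between R270H/R270H and +/+ in log2(rpkm + 1) for tested genes of 4 lists, from top to bottom further EMT factors (Tcf4 to Snai3), mesenchymal products (S100a4 to Acta2), factors of the epithelial state (Grhl3 to Foxa2) and catenins with nectins (Ctnnb1 to Pvrl1); lines are 95% intervals from limma and filled points have an adjusted p under 0.05. The filled points are Tcf4 (2.25), S100a4 (1.80), Cdh11 (1.46), Foxa1 (0.51) and Ctnnb1 (0.79).

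Among the 6 other cadherins tested, 2 rose and 1 fell in R270H/R270H against +/+, where 5.86% of all genes tested were called higher and 6.36% lower. Cdh3 and Cdh11, the 2 that rose, passed the filter only through R270H/R270H, so they had to differ and their count is not support. Cdh5, the 1 that fell, passed it only through +/+, so the same holds for that count. Besides Cdh1, Cdh2 and Cdh17, 25 genes of the table are named as cadherins or cadherin-related proteins, and 18 of them were at the floor in all libraries. P-cadherin (Cdh3), which is found in basal and immature epithelia, was at the floor in both +/+ libraries, at 1 and 1.21 rpkm in flox/flox and at 6.36 and 5.81 in R270H/R270H. It rose by 1.82±0.15 on the log2 scale (s.e., limma adjusted p=0.00441) against +/+ and by 1.75 (0.00397) against flox/flox, and its mean was at least 6.08 times that of +/+, which is listed at the floor. Osteoblast cadherin (Cdh11), known from mesenchymal cells, was at the floor in the other 4 libraries and at 4.65 and 4.37 rpkm in R270H/R270H (1.46±0.14, limma adjusted p=0.00673 against +/+ and 0.0053 against flox/flox). These 2 genes kept both calls in all 10 other settings that used every library, but since values are held at the floor, their spread within +/+ is 0 and these calls are not independent support. With single libraries left out, both kept the call against flox/flox each time. Against +/+ the call of Cdh3 was lost without +/+ replicate 1 or 2 (adjusted p=0.0705 and 0.0788) and without R270H/R270H replicate 1 (0.0522), and so was that of Cdh11 (0.0853, 0.109 and 0.0537).

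The calls that fell were in Cdh5, Cdh13 and Cdhr2. Cdh5, the cadherin of endothelial cells, had 8.88 and 9.35 rpkm in +/+, 1 and 3.30 in flox/flox, and 1.04 and 1 in R270H/R270H. It fell by 2.32 on the log2 scale in R270H/R270H (limma adjusted p=0.0224) and by 1.79 in flox/flox (0.0411). Cdh5 reached the filter of 4 rpkm only in +/+, so its place among the tested genes was fixed by that difference. These calls, and the part of Cdh5 in the counts below, are therefore not support. The other endothelial markers on the stromal list, Pecam1 and Kdr, were at the floor in every library, including those with Cdh5. Cdh13, a cadherin anchored in the membrane by a lipid, had 10.4 and 10.7 rpkm in +/+, 1.19 and 3.54 in flox/flox and 4.62 and 4.60 in R270H/R270H. It fell in flox/flox by 1.87 (limma adjusted p=0.0342), while its difference of -1.04 in R270H/R270H was not called (0.11). The brush border protocadherin Cdhr2, which links microvilli of enterocytes, stood at 36.3 and 48.2, 10.7 and 19.1, and 18.1 and 15.8 rpkm, and fell in flox/flox by 1.49 (limma adjusted p=0.0387). Its difference of -1.26 in R270H/R270H had an adjusted p of 0.0527. Its partner Cdhr5 was at 26.5 and 26.9, 24.6 and 13.6, and 16.9 and 17.5 rpkm and was not called. Over the 6 cadherins tested, 0 rose and 3 fell in flox/flox (4.38% of all genes tested were called higher and 6.9% lower there). Their median log2 differences from +/+ were -0.82 in R270H/R270H and -1.003 in flox/flox, against 0.028 and -0.025 over all genes tested. Cdh3 and Cdh11 passed the filter only through R270H/R270H and Cdh5 only through +/+, so the medians of the 6 are not support either. All calls named in this paragraph were lost when either +/+ library or either R270H/R270H library was left out (adjusted p from 0.127 to 0.293).

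**Figure D4:**
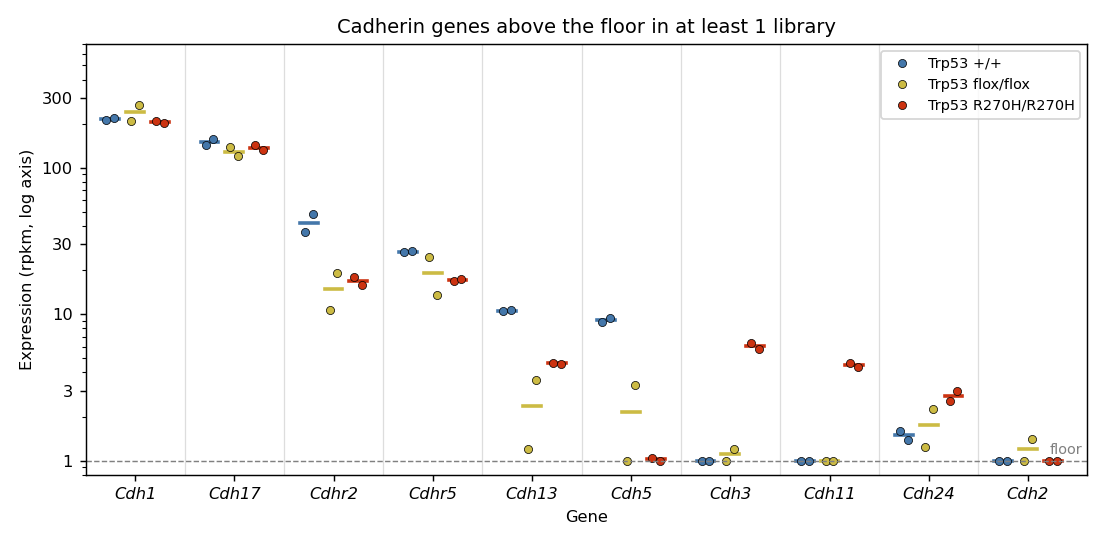
Expression of the 10 cadherin genes that were above the floor of 1 rpkm in at least 1 library (rpkm, log axis); points are libraries and short bars are genotype means. Cdh3 and Cdh11 are above 4 rpkm in the R270H/R270H libraries and at or near the floor elsewhere, and Cdh5, Cdh13 and Cdhr2 are highest in the +/+ libraries.

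The factors that maintain the epithelial state were expressed in all genotypes. None of 12 was at the floor in all libraries, and 10 were tested. The splicing regulators Esrp1 and Esrp2, which set epithelial isoforms, had 30.2 to 39.6 and 20.9 to 25.8 rpkm over the 6 libraries, and the grainyhead factor Grhl2, an activator of junction genes, had 12.3 to 20.2 rpkm. None of these 3 was called in any comparison. Foxa1, a pioneer factor of endodermal epithelia, stood at 19.7 and 18.6 rpkm in +/+, 42.7 and 38.9 in flox/flox and 27.6 and 28.0 in R270H/R270H. It rose by 0.51±0.10 (s.e., limma adjusted p=0.0362) in R270H/R270H and by 1.05±0.10 (0.0105) in flox/flox. Grhl3 rose in flox/flox by 0.97 (limma adjusted p=0.0462) and the other 8 tested genes were called neither there nor in R270H/R270H against +/+. Between R270H/R270H and flox/flox, 2 of the 10 were lower and 0 higher, Foxa1 (-0.54, limma adjusted p=0.0225) and Ovol1 (-0.84, 0.0218), against 11% of all genes called lower and 13.6% higher. The median log2 difference of the 10 was 0.008 in R270H/R270H and -0.008 in flox/flox.

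Of 13 catenins and nectins, which sit at the cytoplasmic side of cadherins or beside them in the membrane, 10 were tested, and 1 rose and 0 fell in R270H/R270H against +/+, where 5.86% of all genes tested were called higher. β-Catenin (Ctnnb1), which serves both the junction and Wnt signaling, was that gene. Its level was 355 rpkm in each +/+ library, 291 and 315 in flox/flox, and 636 and 593 in R270H/R270H. All groups were separate, with both R270H/R270H libraries above the other 4, as in 26.5% of all genes tested. The rise of 0.79±0.11 on the log2 scale (s.e., limma adjusted p=0.0174) over +/+ was 1.73-fold in rpkm. Against flox/flox it was 1.02±0.11 (limma adjusted p=0.00714). α-Catenin (Ctnna1), which couples β-catenin to actin, had 156 and 164 rpkm in +/+ and 146 and 144 in R270H/R270H, and p120-catenin (Ctnnd1), which holds cadherins at the surface, had 106 and 115 against 134 and 125, and neither was called. Nectin-3 (Pvrl3) fell in flox/flox by 0.755 on the log2 scale (limma adjusted p=0.0377) and was higher in R270H/R270H than there by 0.67 (0.0324). Nectin-2 (Pvrl2) was lower in R270H/R270H than in flox/flox (-0.75, limma adjusted p=0.0148).

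Of 18 desmosome and tight junction genes, all tested, 1 fell in R270H/R270H and 0 rose, where 6.36% of all genes tested were called lower. The gene was Perp, a desmosomal membrane protein and a known p53 target. It had 80.0 and 95.4 rpkm in +/+, 58.7 and 65.4 in flox/flox and 54.2 and 50.7 in R270H/R270H. It fell in R270H/R270H by 0.73 on the log2 scale (limma adjusted p=0.0299) and its difference of -0.49 in flox/flox was not called (0.0707). No gene of this list was called between flox/flox and +/+ (4.38% of all genes higher and 6.9% lower). The tight junction scaffold Tjp1 had 49.8 and 58.5 rpkm in +/+ and 54.2 and 50.1 in R270H/R270H, and occludin (Ocln) had 48.2 and 45.3 against 39.3 and 35.9. Neither was called. Between R270H/R270H and flox/flox, Dsg2 and Dsc2 were higher and Crb3, Pkp2, Pkp3 and Tjp3 were lower, with 11% of all genes tested called lower in this comparison. The list's median log2 difference from +/+ was -0.21 in R270H/R270H, with 14 of 18 genes below 0, and 0.002 in flox/flox. Over all genes tested, 4717 of 10042 were below 0 in R270H/R270H, and the medians were 0.028 there and -0.025 in flox/flox.

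Of the 12 epithelial markers, 5 rose in flox/flox against +/+ (among them Cldn3, Cldn4, Krt8 and Krt19) and 0 fell, where 4.38% of all genes tested were called higher and 6.9% lower. In R270H/R270H 1 gene, Krt19, fell and 0 rose, near the 6.36% of all genes called lower there. The keratin Krt19 had 575 and 586 rpkm in +/+, 946 and 1142 in flox/flox, and 301 and 379 in R270H/R270H (-0.78, limma adjusted p=0.0469 against +/+). Villin (Vil1), a microvillus protein whose promoter drives the recombinase, had 108 and 117, 156 and 99.4, and 99.7 and 98.5 rpkm and was not called. The median log2 difference of these 12 markers from +/+ was 0.605 in flox/flox and -0.21 in R270H/R270H. The calls of Foxa1, Ctnnb1, Perp and Krt19 against +/+ were lost when either +/+ or either R270H/R270H library was left out, with adjusted p-values up to 0.318, 0.224, 0.264 and 0.325. Of the 24 list genes called between R270H/R270H and flox/flox, only Cdh3 and Cdh11 kept the call with each of the 6 libraries left out in turn. Both passed the filter only through R270H/R270H and stood at or near the floor in flox/flox, so this is not independent support. Of the 12 called between flox/flox and +/+, no gene kept the call in this way.

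For each tested member genes whose log2 values followed it most closely over the 6 libraries were also listed, as a description, since the libraries share genotypes and mice. Vim was followed by Apcdd1, an inhibitor of Wnt signaling at the cell surface (Pearson's r=0.998), Zfp664 (0.996) and Pdcl (0.994). Apcdd1 stood at 23.1 and 18.6 rpkm in +/+, 31.6 and 3.84 in flox/flox, and 244 and 238 in R270H/R270H, so that it was low in the same flox/flox library as Vim. Cdh1 was followed by Rad54l (0.987) and Hus1 (0.986), genes whose highest value was in flox/flox replicate 2, as that of Cdh1 was. Cdh17 was followed by Rab18 (0.999), Cd164 (0.971) and Slc5a6 (0.964), and Epcam by Magoh (0.995), A2ld1 (0.992) and Pdhx (0.987).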

How the data were processed

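Stranded libraries of poly(A) RNA were run on an Illumina HiSeq. Mapping to mm10 and the deposited rpkm values are the work of the authors, who used StrandNGS (version not given in the sources used here); the floor of 1 rpkm is in the deposited table. Labels give 2 libraries for each of 3 genotypes, and their depth is that estimated above, weakest for Trp53 flox/flox replicate 1 (6 short genes).

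Values were transformed as log2(rpkm+1), genes that reached 4 rpkm in any library were kept, and limma 3.58.1 (lmFit, eBayes with a trend, two-sided) was fitted to all 6 libraries in R 4.3.3, with Benjamini-Hochberg adjustment over 10042 genes and a threshold of 0.05. The fold change on this scale understates low genes. Depth estimates and tables used pandas 2.3.3. The code was tested on simulated data. The members, gene lists and tests were chosen with earlier results of these data known; named genes are members, list genes that were called or define their list, and the 3 closest genes of each tested member. Same-numbered libraries come from different mice. Values of 4 genes that this rule names are not reported here, though counts over lists include them.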

Additional observations from a re-analysis of the deposited data

How the results depend on the processing

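The count of called members changed with several settings. Between R270H/R270H and +/+ it was 0, but 1 (Snai2) with the filter at the floor, 2 (Vim and Epcam) with a weight for each genotype, 1 (Vim) with only the 2 genotypes compared, and 0 to 1 with single libraries left out. Between flox/flox and +/+ it was 0 in the other settings that used every library and 0 to 3 with single libraries left out (3, Cdh1, Cdh17 and Vim, without flox/flox replicate 1; 1, Epcam, without replicate 2). Between R270H/R270H and flox/flox it was 1 (Vim), 2 with the filter at the floor, 0 with only the 2 genotypes compared, and 0 to 2 with single libraries left out. A genotype left with a single library is assumed to vary like the others. The Snai2 calls rest on +/+ values held at the floor, as said above.

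Signs turned with a library left out for Cdh1 in flox/flox against +/+ (-0.04 to 0.31), Vim in the same comparison (-1.52 to 0.28), and Cdh17 (-0.004 to 0.19) and Epcam (-0.23 to 0.16) in R270H/R270H against flox/flox; Epcam was 0.009 there under upper-quartile scaling. None of these signs belonged to a called difference in the fit of all libraries.

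Over all genes, the R270H/R270H organoids had 588 higher and 639 lower against +/+. These counts were 3200 and 2787 with genotype weights, 3136 and 2585 with only the 2 genotypes compared, and 1039 and 868 with the filter at the floor. For flox/flox against +/+ 440 and 693 became 35 and 115 with weights and 9 and 38 with only these genotypes. Of the 9 list genes called in R270H/R270H against +/+, 5 (Tcf4, S100a4, Cdh3, Cdh11 and Cdh5) kept the call in all 10 settings that used every library. All but Tcf4 reached the filter of 4 rpkm in a single genotype, so for them this is not independent support. No gene kept the call in every fit that left out a library. For flox/flox against +/+ 0 of 12 kept it in all 10. Keeping every gene in the fit was not run as a setting of its own, because the 23760 genes at the floor in every library have no spread and without them it is the filter at the floor. The share of promoters with CAGGTG was 10.5% in the window from 100 bases before to 50 after the start.

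Same-numbered libraries did not deviate together (r from -0.291 to 0.117), and they come from different mice. With a replicate block the members called were 0, 0 and 1 in the order above, and the all-gene counts fell to 255 and 295, 71 and 209, and 668 and 488. The calls of Ctnnb1, Perp, Krt19 and Foxa1 in R270H/R270H against +/+ were lost with the block (adjusted p=0.0561, 0.0637, 0.0716 and 0.0867).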
